A study of Arabidopsis thaliana with 8 samples.

Results

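The 9 genes described here, followed in roots of Arabidopsis thaliana, belong to sugar signalling. They are the 7 class II trehalose-phosphate synthase genes (TPS5 to TPS11) and the 2 genes for the catalytic subunits of SnRK1 (KIN10 and KIN11). Both sets were taken by AGI code (the Arabidopsis locus name) from the locus column of the array annotation, as probe sets listing that code and no other. Each of the 9 genes had 1 such probe set and no probe set shared with another gene, out of 21019 genes with a probe set of their own. The RNA came from roots of wild-type plants and of plants labelled as uri mutants, without an allele name, hybridised to 8 single-colour arrays. URI is a basic helix-loop-helix transcription factor of the iron-deficiency response. All plants spent 14 days on diluted B5 medium and then 3 days on 1 of 2 media. The medium written +Fe held 50 µM Fe(III)-EDTA, and the medium written −Fe held no added iron and 300 µM ferrozine, which binds iron. Crossing genotype with iron supply gave 4 groups of 2 replicates, called biological in the labels.

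Trehalose 6-phosphate is a sugar phosphate present in traces in most plants, and its level follows that of sucrose. It is made by the class I synthase TPS1 and removed by trehalose-phosphate phosphatases (TPP), and it restrains SnRK1, a protein kinase complex that switches metabolism towards breakdown when sugar is short. Class II TPS proteins carry both a synthase-like and a phosphatase-like domain, have little or no known enzyme activity, and can bind SnRK1. In Arabidopsis seedlings the transcripts of TPS8 to TPS11 are known to fall with sugar supply and to rise in darkness or starvation, whereas that of TPS5 rises with sugar.

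The deposited values were linear intensities, with array medians between 119.09 and 128.06, and log2 was taken from them. Replicates of a group had a correlation of 0.9938 to 0.9978 over probe sets on that scale. The URI transcript itself had log2 intensities of 8.73 and 8.78 in wild type +Fe, 7.84 and 7.64 in uri +Fe, and 8.64 and 8.60 in wild type −Fe. The arrays labelled uri −Fe had 8.52 and 8.62. The transcript was therefore low in uri under +Fe and not under −Fe, where its level did not separate the labelled genotypes. Without an allele name, the level a uri mutant should have is not known, so the label uri −Fe could not be checked by it. In what follows uri −Fe names the arrays carrying that label, and every response given for uri has them on one side, so its direction holds for the labels and not for a checked genotype. None of the 8 root markers and none of the 18 photosynthesis markers with a probe set of their own had a group mean below the lower quartile of all probe sets. Photosynthesis genes were read as markers of shoot tissue. Their summed linear intensity was 8231 and 9159 in wild type +Fe, 5618 and 5580 in wild type −Fe, and 7882 and 7198 in uri +Fe. On the arrays labelled uri −Fe it reached 11994 and 10975. Summed root marker intensity was 9157 and 8833 in wild type +Fe, 9561 and 9794 in wild type −Fe, and 8012 and 7541 in uri +Fe. It was 7900 and 8033 in uri −Fe, so the sums were lower in uri under both supplies. CASP1, the brightest of the 8 root markers at a mean log2 of 12.01, weighs most in these sums. Its log2 difference, uri minus wild type, was −0.5 with iron and −0.66 without. In whole roots, fewer cells of a type and less RNA per cell cannot be told apart. The array numbers in the sample titles run in 2 separate series, 1 for −Fe and 1 for +Fe, so iron supply and array series cannot be told apart, whereas each comparison of genotypes lies within 1 series.

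TPS8, TPS9, TPS10 and TPS11 all had their highest intensities on the arrays labelled uri −Fe. TPS11 (AT2G18700) had log2 intensities of 10.30 and 10.05 in wild type +Fe, 9.37 and 9.25 in wild type −Fe, 9.13 and 8.88 in uri +Fe, and 10.86 and 10.88 in uri −Fe. The 4 groups of TPS11 did not overlap: uri +Fe was lowest, then wild type −Fe, and uri −Fe was highest, above wild type +Fe. TPS8 (AT1G70290) followed the same order without overlap, with 9.75 and 9.47 in wild type +Fe, 9.23 and 9.19 in wild type −Fe, 8.80 and 8.19 in uri +Fe, and 10.66 and 10.42 in uri −Fe. The gap of 0.62 between the uri +Fe replicates of TPS8 was the widest between replicates of any of the 9 genes.

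TPS10 (AT1G60140) had log2 intensities of 10.05 and 9.90 in wild type +Fe, 9.37 and 9.41 in wild type −Fe, 9.58 and 9.60 in uri +Fe, and 10.84 and 10.61 in uri −Fe. Its groups did not overlap either, but the lowest was wild type −Fe rather than uri +Fe, by a gap of 0.20 between the means. TPS9 (AT1G23870) had 9.87 and 10.11 in wild type +Fe, 9.98 and 10.03 in wild type −Fe, 9.42 and 9.17 in uri +Fe, and 10.72 and 10.54 in uri −Fe. The wild-type groups of TPS9 overlapped, with uri +Fe below both and uri −Fe above both.

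The other 3 class II genes each behaved in their own way. TPS5 (AT4G17770) had log2 intensities of 9.84 and 9.58 in wild type +Fe, 9.80 and 9.77 in wild type −Fe, 9.89 and 10.18 in uri +Fe, and 8.96 and 8.95 in uri −Fe. The uri −Fe arrays were thus the lowest for TPS5, the reverse of their place for TPS8 to TPS11, and its wild-type groups overlapped. TPS6 (AT1G68020), in the middle of the array's range, had 7.02 and 7.19 in wild type +Fe, 6.89 and 6.79 in wild type −Fe, 6.97 and 6.81 in uri +Fe, and 7.50 and 7.37 in uri −Fe. Both uri −Fe and wild type +Fe stood clear of the other groups, since wild type −Fe and uri +Fe overlapped. TPS7 (AT1G06410) lay between 9.70 and 10.08 on all 8 arrays, and each group overlapped its neighbour in the order of means.

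The SnRK1 catalytic subunits varied little. KIN10 (AT3G01090), the subunit best known as the sugar-starvation kinase, lay between 9.14 and 9.46 on the log2 scale, with 9.14 and 9.15 in uri −Fe just below all other arrays. KIN11 (AT3G29160), its close relative, lay between 9.70 and 9.97, and neighbouring groups overlapped. The range of group means was 0.26 for KIN10, 0.15 for KIN11 and 0.14 for TPS7, against 2.04 for TPS8 and 1.86 for TPS11.

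**Figure D1:**
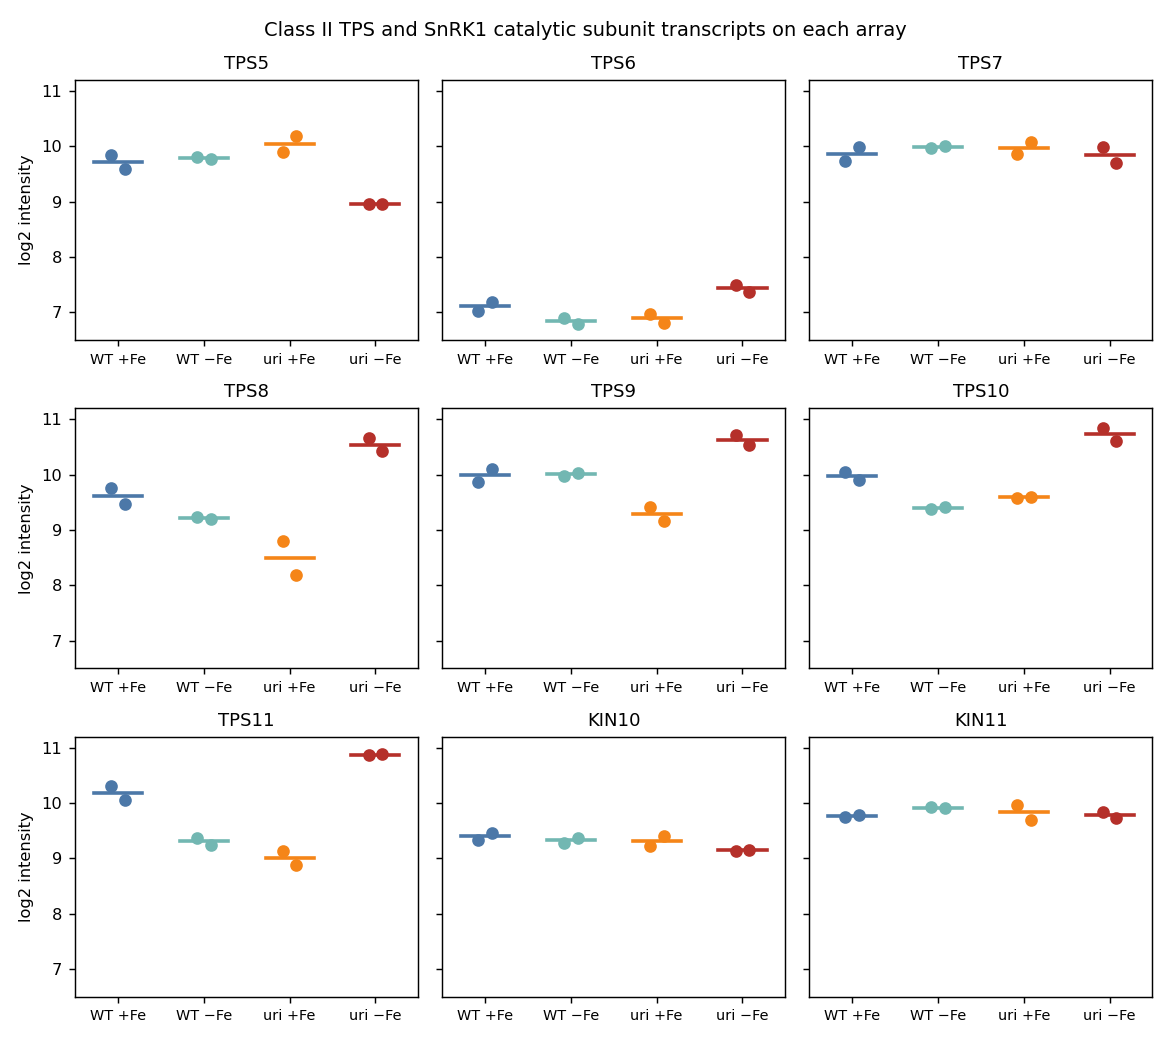
Log2 intensity (vertical axis) of each of the 9 genes in the 4 groups (horizontal axis), with a point for each of 2 arrays per group and a bar at their mean. TPS8 to TPS11 are highest in uri −Fe, TPS5 is lowest there with 8.96 and 8.95, and TPS7, KIN10 and KIN11 are nearly level.

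The first comparison asked how these transcripts differed between −Fe and +Fe in wild-type roots. Both genes that passed the test fell, namely TPS11 and TPS10, and none rose. TPS11 fell 1.82-fold, with a log2 difference of −0.87 ± 0.132 (moderated standard error, SE, 2 arrays per group, adjusted p = 0.00176 by limma over all 22746 probe sets). TPS10 fell 1.5-fold, at −0.58 ± 0.123 (adjusted p = 0.0135). The 2 of 9 genes called stand beside 5.65% of all probe sets called in this comparison at an adjusted p under 0.05, with 2.14% lower and 3.51% higher. The differences were −0.40 ± 0.180 for TPS8 (adjusted p = 0.261) and −0.27 ± 0.123 for TPS6 (adjusted p = 0.27), and neither passed. TPS9 gave 0.01, TPS5 0.08, TPS7 0.11, KIN10 −0.08 and KIN11 0.15, with adjusted p from 0.59 to 0.983. The 95% intervals of KIN10 and KIN11 ran from −0.33 to 0.18 and from −0.11 to 0.42. The TPS10 call did not survive the loss of single arrays, with adjusted p = 0.144 and 0.107 when the first or the second wild-type −Fe array was left out, and 0.113 when the first wild-type +Fe array was, which left 1 gene called. Photosynthesis markers were lower in 13 of 18 cases in the same comparison, and their part in these falls was not tested.

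In the libraries labelled uri, iron deficiency went with a rise of 5 class II genes and a fall of 1. TPS8 rose 4.13-fold (log2 2.04 ± 0.180 SE, 2 arrays per group, limma adjusted p = 4.83e-06). TPS11 rose 3.63-fold (1.86 ± 0.132, adjusted p = 9.21e-07), TPS9 2.53-fold (1.34 ± 0.134, adjusted p = 1.37e-05) and TPS10 2.20-fold (1.14 ± 0.123, adjusted p = 2.31e-05). TPS6 rose 1.46-fold (0.54 ± 0.123, adjusted p = 0.00433). TPS5 fell 2.12-fold (−1.08 ± 0.134, adjusted p = 6.97e-05). In this comparison 33.1% of all probe sets were called, 15.1% higher and 18.0% lower, so that a call alone says little about a gene here. Of all probe sets, 2.99% were called with a rise of at least 2-fold, and TPS8, TPS9, TPS10 and TPS11 were among them. TPS7 (−0.12, 95% interval from −0.43 to 0.18), KIN10 (−0.18, from −0.43 to 0.08) and KIN11 (−0.05, from −0.32 to 0.21) did not pass. Leaving out any 1 array kept the count at 6 genes. Photosynthesis markers were higher in 10 of 18 cases, root markers were higher in 1 and lower in 3 of 8, and their part in these differences was not tested.

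**Figure D2:**
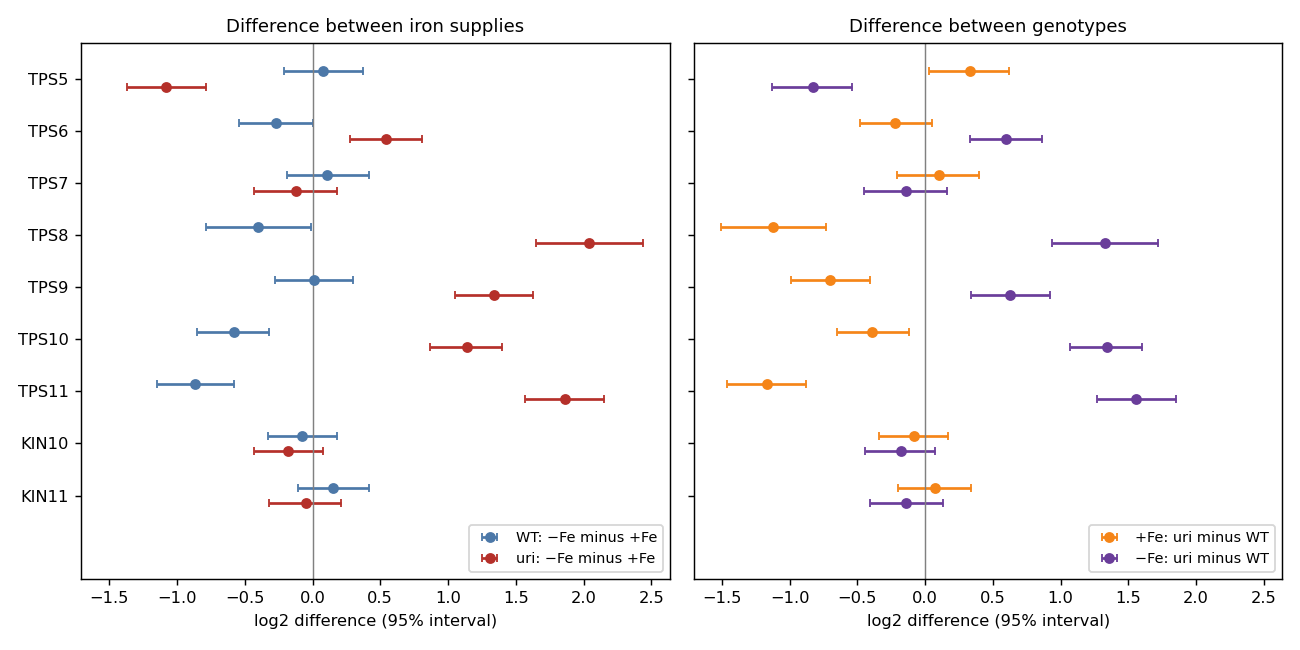
Log2 differences (horizontal axis) of the 9 genes with 95% intervals from the fit to all 8 arrays, between iron supplies within each genotype (left) and between genotypes under each iron supply (right). TPS11 has −0.87 in wild type and 1.86 in uri, whereas every interval of TPS7, KIN10 and KIN11 includes 0.

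Between genotypes without iron, a comparison within 1 array series, 5 class II genes were higher on the arrays labelled uri and 1 was lower. These values share the arrays labelled uri −Fe with the preceding comparison and are not independent of it. TPS11 was 2.95-fold higher (log2 1.56 ± 0.132 SE, 2 arrays per group, limma adjusted p = 3.84e-06), TPS10 2.52-fold (1.34 ± 0.123, adjusted p = 7.54e-06) and TPS8 2.51-fold (1.33 ± 0.180, adjusted p = 0.00015). TPS9 was higher by 0.63 ± 0.134 (adjusted p = 0.00383) and TPS6 by 0.60 ± 0.123 (adjusted p = 0.00301). TPS5 was 1.78-fold lower, at −0.83 ± 0.134 (adjusted p = 0.000545). Of all probe sets 26.6% were called here, 12.2% higher and 14.4% lower, against 6 of the 9 genes, and no left-out array changed that count. TPS7 had −0.14 (95% interval from −0.45 to 0.16), KIN10 −0.18 (from −0.44 to 0.07) and KIN11 −0.14 (from −0.41 to 0.13), and these did not pass. Photosynthesis markers were higher in uri in 18 of 18 cases and root markers lower in 3 and higher in 1 of 8, and their part in these differences was not tested.

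With iron, the direction between genotypes was the opposite. TPS11 was 2.25-fold lower in uri +Fe than in wild type +Fe (log2 −1.17 ± 0.132 SE, 2 arrays per group, limma adjusted p = 0.000625), which placed it 41st of 22746 probe sets by p. TPS8 was 2.17-fold lower (−1.12 ± 0.180, adjusted p = 0.00594) and TPS9 1.62-fold lower (−0.70 ± 0.134, adjusted p = 0.0153). TPS10 had −0.39 ± 0.123 (adjusted p = 0.124), TPS5 0.33 ± 0.134 (adjusted p = 0.253) and TPS6 −0.22 ± 0.123 (adjusted p = 0.428). These 3 did not pass although the arrays of the groups did not overlap. TPS7 (0.10), KIN10 (−0.08) and KIN11 (0.07) had adjusted p from 0.81 to 0.854. The 3 of 9 genes called, all lower, stand beside 3.12% of all probe sets called with 1.78% lower and 1.34% higher. Leaving out the first wild-type +Fe array ended the TPS8 call (−0.98, adjusted p = 0.0857). Leaving out the second wild-type +Fe array ended the TPS9 call (−0.58, adjusted p = 0.0985), as did leaving out the second uri +Fe array (−0.57, adjusted p = 0.0986). The TPS9 call was also lost when only the 4 +Fe arrays were fitted (adjusted p = 0.0579). Photosynthesis markers were lower in 3 of 18 cases here and did not pass in 15, and their part was not tested. That count of 3 was 1 without the first wild-type +Fe array and 0 without the second wild-type +Fe array, without the second uri +Fe array or with only the +Fe arrays fitted.

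The iron response itself differed between the labelled genotypes for 6 of the 9 genes, as tested by the interaction of genotype and iron supply. For TPS11 the uri response exceeded the wild-type response by a log2 value of 2.73 ± 0.187 (SE, limma adjusted p = 1.39e-06), the 64th of 22746 probe sets by p. The excess was 2.45 ± 0.255 for TPS8 (adjusted p = 3.47e-05), 1.72 ± 0.173 for TPS10 (adjusted p = 2.67e-05), 1.33 ± 0.190 for TPS9 (adjusted p = 0.000398) and 0.81 ± 0.174 for TPS6 (adjusted p = 0.00576). For TPS5 it was −1.16 ± 0.190 (adjusted p = 0.00102). TPS10 and TPS11 combined a called fall in wild type with a called rise in uri. TPS5, TPS6, TPS8 and TPS9 were called in uri and not in wild type. Of all probe sets 20.4% were called for the interaction, 9.60% with a higher and 10.8% with a lower value in uri. TPS7 (−0.24, 95% interval from −0.67 to 0.19), KIN10 (−0.10, from −0.46 to 0.26) and KIN11 (−0.21, from −0.59 to 0.17) did not pass, and these intervals leave room for differences of moderate size.

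On the arrays labelled uri −Fe, TPS1 and 7 of 9 measured phosphatase and trehalase genes were lower than in uri +Fe, whereas TPS8 to TPS11 were higher. TPS1, the class I gene for the active synthase, had log2 intensities of 8.15 and 8.23 in wild type +Fe, 8.43 and 8.50 in wild type −Fe, 8.61 and 8.55 in uri +Fe, and 7.47 and 7.42 in uri −Fe. The uri −Fe arrays were the lowest for TPS1, as for TPS5. TPS1 fell 2.2-fold under iron deficiency in uri (log2 −1.13 ± 0.111 SE, limma adjusted p = 1.15e-05), and its wild-type difference was 0.27 (adjusted p = 0.209). Under +Fe its difference, uri minus wild type, was 0.38 (adjusted p = 0.0943). The TPS1 interaction was −1.41 ± 0.158 (adjusted p = 6.13e-05). With log2 of the value plus 50, 1 of the 4 class I genes was called higher under −Fe in wild type. Likewise 1 was called higher in uri under +Fe. TPS2, TPS3 and TPS4, the other class I genes, had means below the lower quartile of the arrays in all 4 groups. None of them passed in any of the 5 tests of the main fit.

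Of 10 phosphatase genes and the trehalase gene TRE1, which encodes the enzyme that splits trehalose, 9 had a probe set of their own, and TPPF and TPPG had only shared ones. In uri, 7 of the 9 were lower under −Fe than under +Fe and 1 was higher. The remaining gene, TPPC, was not called (−0.10, limma adjusted p = 0.554). With log2 of the value plus 50, 6 were called lower. The lower calls were also not all kept without uri −Fe replicate 2 or without uri +Fe replicate 1. Over all probe sets 18.0% were called lower in this comparison. The list's median log2 difference was −1.07, beside −0.011 over all probe sets. TPPI fell by 1.77 on the log2 scale, TPPJ by 1.55, TPPD by 1.5 and TPPH by 1.18, and the 1 riser was TRE1 at 0.81 ± 0.140 (adjusted p = 0.000797). TPPJ had a uri −Fe mean of 4.32, under the lower quartile of 4.71 for that group, which makes the size of its fall uncertain. In wild type 1 of the 9 was called, beside 5.65% of all probe sets. It was TPPI, which rose by 1.49 ± 0.219 (limma adjusted p = 0.00132).

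TPPI had the largest interaction of the phosphatase genes, with opposite called directions in the 2 genotypes. Its log2 intensities were 6.91 and 6.96 in wild type +Fe, 8.45 and 8.39 in wild type −Fe, 7.85 and 8.41 in uri +Fe, and 5.98 and 6.74 in uri −Fe. The wild-type −Fe and uri +Fe arrays overlapped at the top, and the uri −Fe arrays were the lowest. The responses differed by −3.25 ± 0.310 (limma adjusted p = 1.73e-05), and under +Fe uri was higher by 1.2 ± 0.219 (adjusted p = 0.0115). The latter call was lost, leaving 0 of the 9 genes, when either wild-type +Fe array or the second uri +Fe array was left out, and with log2 taken of the value plus 50. Without iron, 7 of 9 were lower on the arrays labelled uri and 1, TRE1, was higher by 0.88, beside 14.4% of all probe sets lower and 12.2% higher. The interaction was called lower for 6 of 9, beside 10.8% of all probe sets, among them TPPJ at −1.61, TPPA at −1.44 and TPPD at −1.34. It was called higher for TRE1 at 0.87, a call lost without wild-type −Fe replicate 2, which left 0 higher.

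Among the other SnRK1 genes, the regulatory subunits KINB1 and KING1 followed TPS8 to TPS11, unlike the catalytic subunits. KINB1 (beta subunit) had log2 intensities of 10.32 and 10.50 in wild type +Fe, 9.77 and 9.82 in wild type −Fe, 9.70 and 9.5 in uri +Fe, and 10.97 and 11.00 in uri −Fe. No group overlapped another, in the order found for TPS8 and TPS11. KINB1 fell in wild type by 0.61 (limma adjusted p = 0.01) and rose in uri by 1.39 ± 0.122 (adjusted p = 4.76e-06), with an interaction of 2.00 ± 0.172 (adjusted p = 8.71e-06). The wild-type call was lost, leaving 0 of the list, without wild-type −Fe replicate 1, wild-type −Fe replicate 2 or wild-type +Fe replicate 2.

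KING1 (gamma-type subunit) had 11.79 and 11.75 in wild type +Fe, 11.82 and 11.71 in wild type −Fe, 11.19 and 11.29 in uri +Fe, and 12.53 and 12.58 in uri −Fe on the log2 scale. Its wild-type groups overlapped between a lower uri +Fe and a higher uri −Fe, as for TPS9. KING1 rose in uri by 1.31 ± 0.113 (limma adjusted p = 4.11e-06), and its wild-type difference was −0.01 (adjusted p = 0.983). Of the 6 measured genes of this list, 2 rose and 4 did not pass in uri, with a median of 0.05 beside −0.011 over all probe sets. The 2 of 6 called stand beside 33.1% of all probe sets called, 15.1% higher and 18.0% lower, so the count alone says little. Under +Fe both KINB1 (−0.81, adjusted p = 0.00413) and KING1 (−0.53, adjusted p = 0.0258) were lower in uri, although leaving out any 1 of the 6 arrays other than those labelled uri −Fe left 1 of them called. SNF4, which encodes the subunit that joins beta and gamma domains, was lower on the arrays labelled uri −Fe than in wild type −Fe by 0.39 (adjusted p = 0.025) and was not called without any 1 of those 4 arrays. The SNF4 interaction was −0.59 ± 0.164 (limma adjusted p = 0.0239). KINB2 and KINB3 were not called in any of the 5 tests. KIN12, another catalytic gene, was below the lower quartile in all groups, and the upstream kinase genes SNAK1 and SNAK2 had only shared probe sets.

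**Figure D3:**
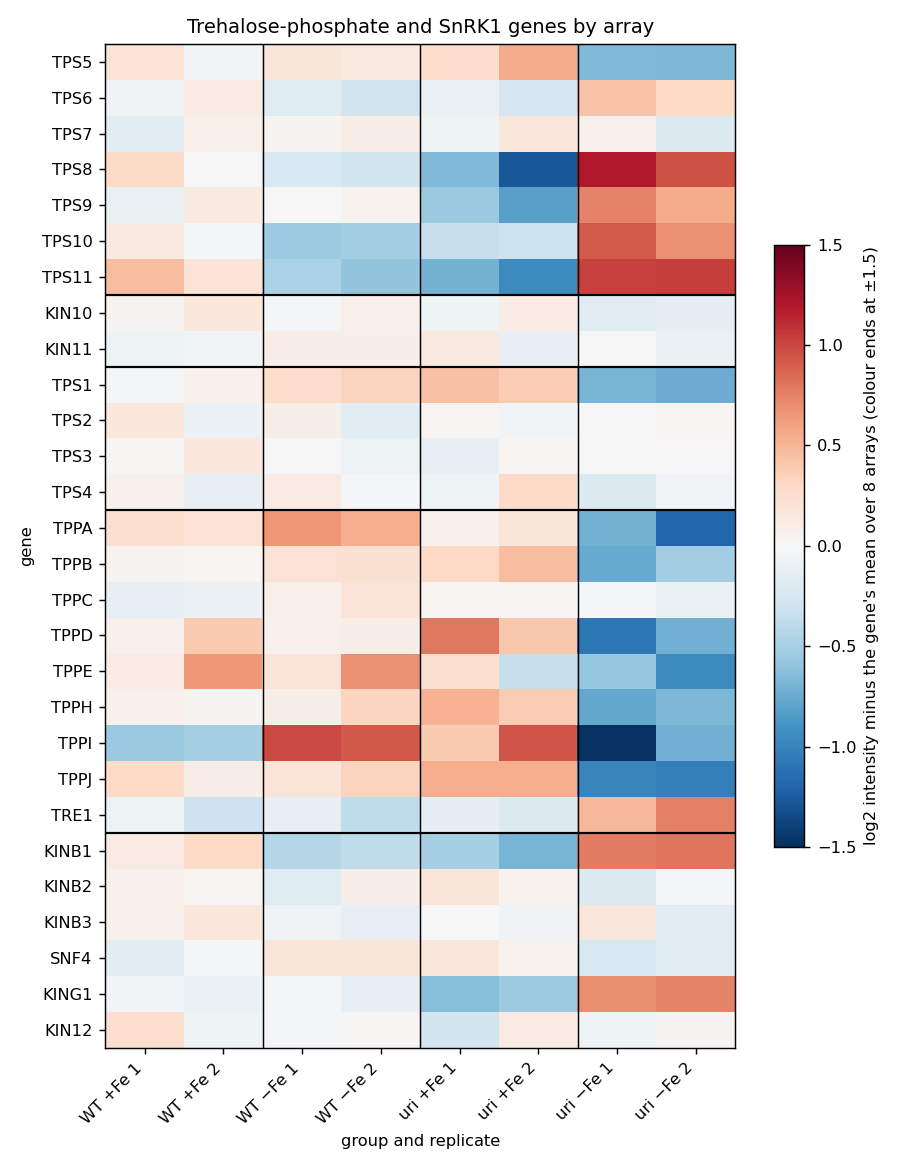
Log2 intensity of each gene (rows) on each array (columns) minus that gene's mean over the 8 arrays, red for higher and blue for lower. From top to bottom the blocks hold class II TPS, SnRK1 catalytic subunits, class I TPS, phosphatases with trehalase, and other SnRK1 subunits. On both arrays labelled uri −Fe, TPS8 to TPS11, KINB1 and KING1 are red, while TPS5, TPS1 and 7 of the phosphatase genes are blue.

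Genes known to rise in darkness or sugar starvation, often read as outputs of SnRK1, were set beside the class II genes. The list was drawn up with results of these arrays known, among them those of SEN1, DIN11 and GAT1_2.1, so its direction is a description and no independent evidence. In the libraries labelled uri, 16 of 16 rose under iron deficiency, beside 15.1% of all probe sets, with a median log2 difference of 1.89 beside −0.011 over all probe sets. The largest were DIN11 at 5.46 (with a +Fe mean below the lower quartile, so that its size is uncertain), SEN1 at 4.1, BCAT2, a gene of branched-chain amino acid breakdown, at 3.87, and GAT1_2.1 at 3.76. In wild type 9 of the 16 fell, beside 2.14% of all probe sets, and 7 did not pass, with a median of −0.52. SEN1 fell there by 1.70, ASN1, which encodes an asparagine synthetase, by 1.21, and DIN3, a subunit gene of branched-chain keto acid breakdown, by 1.1. Without wild-type −Fe replicate 2 the count of falls was 4. Under +Fe 10 of the 16 were lower in uri, beside 1.78% of all probe sets, and 1, DIN2, was higher (0.57, adjusted p = 0.0339). The DIN2 call was lost without either wild-type −Fe array, the first wild-type +Fe array or the second uri +Fe array, with the replicate block, with log2 of the value plus 50, and with only the +Fe arrays fitted. The interaction was called higher in uri for 16 of 16, beside 9.60% of all probe sets, with a median of 2.46.

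Sugar-induced genes were mostly dim and gave little to compare. Of 5 measured genes, 0 passed in wild type by limma (1, lower, at an unadjusted p under 0.05), beside 5.65% of all probe sets. In uri 1 passed, beside 18.0% of all probe sets called lower. It was APL3, a starch synthesis gene, with a fall of 0.40 (limma adjusted p = 0.0277). That call was lost without any 1 of the 4 uri arrays, with median centring, with log2 of the value plus 50 and with the trended robust prior. GPT2, BAM5 and MYB75 lay below the lower quartile in all 4 groups, where a change could hardly be detected. The interaction was −0.54 for APL3 and 0.66 for DFR, and neither passed (limma adjusted p = 0.0502 and 0.0528). The C and S1 bZIP factors are transcription factors downstream of SnRK1, and 4 of 9 had a probe set of their own, all of the C group, the other 5 having only shared ones. BZIP63, a SnRK1 target, rose in uri by 1.25 ± 0.125 (adjusted p = 1.27e-05), BZIP25 by 0.86 and BZIP9 by 0.71, while BZIP10 had 0.08 (adjusted p = 0.68). These 3 of 4 called higher stand beside 15.1% of all probe sets. The list's median was 0.79, beside −0.011 over all probe sets. In wild type 0 of the 4 passed by limma (1, lower, at an unadjusted p under 0.05), beside 5.65% of all probe sets. Their differences ran from −0.28 to 0.02. Under +Fe BZIP63 was lower in uri by 0.82 (adjusted p = 0.00428).

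**Figure D4:**
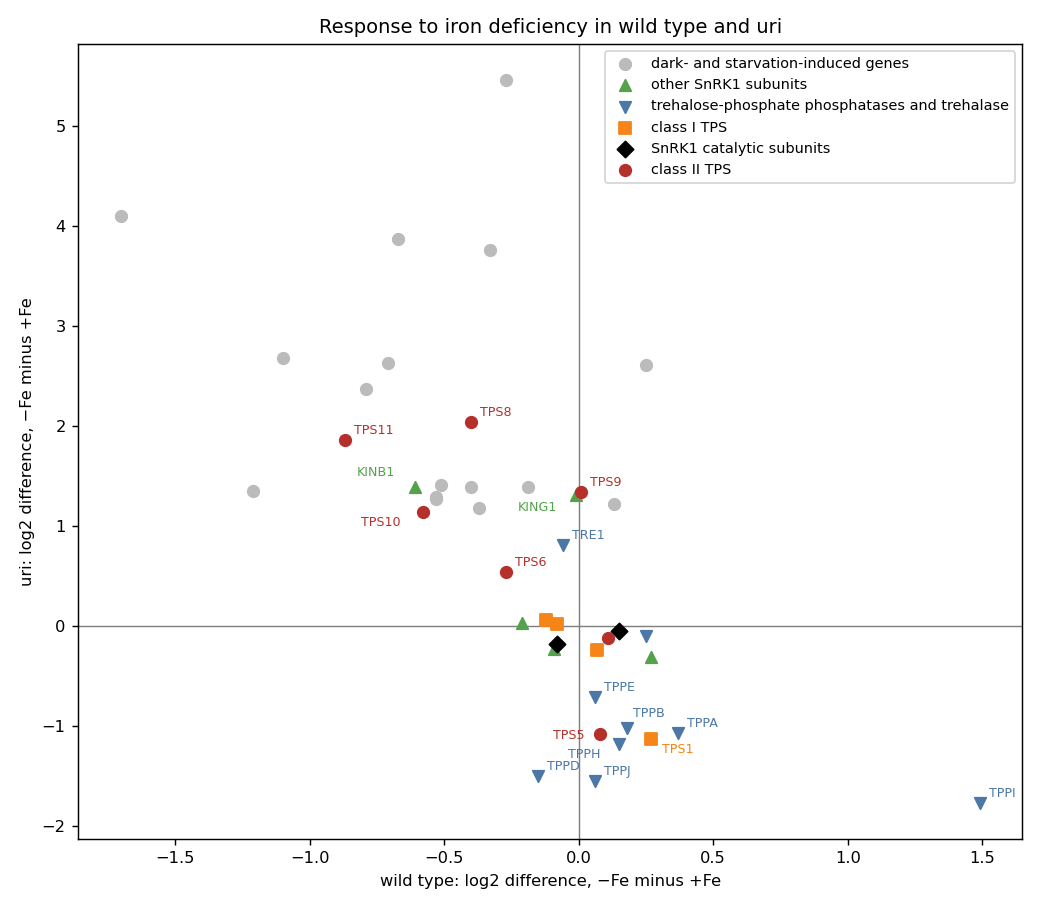
Log2 difference between −Fe and +Fe in wild type (horizontal axis) against that in uri (vertical axis), 1 point per gene, with colours and shapes for the gene lists and names for trehalose-phosphate and SnRK1 genes past 0.5 in uri. The 2 axes share no arrays. TPS6, TPS8, TPS10 and TPS11 lie at the upper left, and TPPI at the lower right (1.49, −1.77).

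The class II genes also differed in how far their whole profiles lay from one another. As a measure of likeness, the root mean square difference of log2 values was taken over the 8 arrays after each gene was centred on its own mean, so that 0 is an identical profile. Among class II genes the closest pair was TPS8 and TPS11 at 0.213, and the farthest was TPS5 and TPS8 at 1.16. TPS7 lay 0.12 from KIN10 and 0.147 from KIN11. Because TPS7, KIN10 and KIN11 barely varied, these small distances do not show that they change together. Outside the 9 genes, the profile of TPS8 was closest to ATCTH, a zinc finger protein gene, at 0.115, to MEE14 at 0.156 and to AT1G80180 at 0.194. That of TPS5 was closest to RPA70B (0.072) and MCM3 (0.0896), both DNA replication genes, and to NAP57 (0.0842), a ribosomal RNA modification gene. That of KIN10, which barely varied, was closest to MIRO2 (0.0415), scpl50 (0.042) and IAA6 (0.0447). These distances describe 8 arrays in 4 groups and carry no test.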

How the data were processed

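Roots of wild-type and uri plants were profiled with and without iron on 8 arrays, 2 per group. The deposited values are linear probe-set intensities, and the submitters' processing notes name RMA (robust multi-array averaging). The version, probe-set library and genome build are not given in the sources used here. After 64 control probe sets were removed from the 22810, 22746 were tested on the log2 scale. Annotation was joined by its own probe-set column, because 44 lines stood beside another probe set. The 2 deposited tables differed by at most 5e-06 linear units.

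All arrays entered 1 group-means model in limma 3.58.1 (R 4.3.3, lmFit and eBayes, 4 residual and 8.32 prior degrees of freedom). The 5 contrasts were two-sided, adjusted over all tested probe sets by Benjamini and Hochberg, and called at an adjusted p under 0.05. The number of arrays limits the precision.

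All 9 genes are named, with up to 4 called genes per pathway list and comparison, those with the largest differences, and other genes where a count or call turns on them. For TPS5, KIN10 and the class II gene of widest range, the 3 closest profiles are named. Genes, lists and rules were chosen with earlier results of these data known. Listed genes were named through the RefSeq table (TAIR10.1). Planned promoter motif searches were not made, since no promoter sequence was used here. Alternatives were median centring, quantile normalization, a filter on dim probe sets, log2 of the value plus 50, fits of 2 groups, another variance prior, a replicate block, the series table, and leaving out each array.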

Additional observations from a re-analysis of the deposited data

Results flagged for a closer look

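The iron response differed between uri and wild type for 6 of the 9 genes, by the interaction test in limma. Over all probe sets 20.4% were called in that test. The log2 difference between the responses (uri minus wild type) was 2.73 for TPS11, 2.45 for TPS8, 1.72 for TPS10, 1.33 for TPS9, 0.81 for TPS6 and −1.16 for TPS5. All 6 calls held with any 1 array left out and under every other alternative run. The arrays labelled uri −Fe, whose URI transcript does not separate them from wild type, and the summed photosynthesis marker intensity of 11994 and 10975 on them, bear on all 6, and their part was not tested. Groups of 2 arrays were too small for a check for single outlying arrays.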

How the results depend on the processing

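With 2 arrays per group, single arrays decided some calls under +Fe and in wild type, and dim probe sets could show little. The number of the 9 genes called stayed at 6 for iron deficiency in uri, for uri against wild type −Fe and for the interaction under every alternative. Leaving out 1 array gave 1 to 2 in wild type and 2 to 3 for uri against wild type +Fe. Other alternatives gave 2 in wild type and 2 to 4 under +Fe, where the trended robust prior added TPS10 (−0.39, adjusted p = 0.0469). Of 711 values per gene and alternative, 691 kept direction and side of the threshold, 7 lost and 1 gained a call, and 12, of genes not called either way, changed sign. With single arrays left out, their values spanned −0.05 to 0.21 for TPS5, −0.01 to 0.24 for TPS7 and −0.11 to 0.13 for TPS9 in wild type, −0.26 to 0.02 for TPS7 and −0.19 to 0.08 for KIN11 in uri, and −0.03 to 0.22 for TPS7, −0.17 to 0.01 for KIN10 and −0.07 to 0.21 for KIN11 between genotypes under +Fe. Quantile normalization gave −0.02 for TPS9 in wild type, and median centring 0.01 for KIN11 in uri. With the replicate number as a block, 2, 6, 6, 3 and 6 genes were called in the 5 tests in the report's order. Nothing in the labels says the numbers pair arrays, and replicate differences correlated between groups from −0.223 to 0.155. Over all probe sets, single left-out arrays moved the count of calls from 1285 to 435 at the lowest in wild type, from 709 to 179 or 1379 under +Fe, from 6057 to 3609 under −Fe and from 4637 to 2849 for the interaction. Fitting the +Fe arrays alone gave 295 and the trended prior 1113. Proportionally smaller moves, some of them rises, are not listed, and those of the iron response in uri are among them. The cause was not tested.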
